A study of Mus musculus with 16 samples.

Results

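Calcineurin and CaMKII are the calcium-activated enzymes through which a heart muscle cell can turn a rise in calcium into a growth response. The members of this signalling route described here, chosen by symbol from the deposited count table, were Rcan1, Rcan2, Ppp3ca, Ppp3cb, Ppp3r1, Nfatc3, Camk2d, Camk2g, Hdac4 and Hdac5. All 10 were found, among 35682 genes in the table, and all 10 passed the filter on low counts that left 10945 genes to test. They were compared between ventricular myocytes of B3AR-Tg mice, a transgenic line whose name the labels do not spell out, and of their wild-type (WT) littermates, 8 mice of each. Every animal of both genotypes had undergone TAC (transverse aortic constriction, a narrowing of the aorta that loads the left ventricle) 9 weeks before its cells were taken. The values therefore describe genotype under load. Unoperated animals were not analysed here. The mice were adult, and their strain, exact age and sex, the transgene's promoter and its species are not given in the sources used here. The titles call the animals biological replicates.

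In outline, the pathway works as follows. Calcium bound to calmodulin switches on the phosphatase calcineurin. It joins a catalytic A subunit (Ppp3ca or Ppp3cb among the members) to the calcium-binding regulatory B subunit Ppp3r1. Calcineurin removes phosphate from NFAT factors such as Nfatc3, which then enter the nucleus and switch on growth genes, and the RCAN proteins bind calcineurin and modulate it. CaMKII, encoded in the heart mainly by Camk2d with Camk2g, is the kinase arm. It phosphorylates the class IIa histone deacetylases Hdac4 and Hdac5, which then leave the nucleus and release MEF2 factors from repression.

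Rcan1 is both a regulator of calcineurin and, through an internal promoter, a well-known target of NFAT, so its level is often read as an output of calcineurin. Its start regions are shown because the deposited value adds up transcripts from all starts of the gene. RefSeq (GRCm38.p6) placed Rcan1 starts 66091 bases apart on chromosome 16, and the 250 bases before each are printed 5′ to 3′ on the minus strand, with each GGAAA, the core of the NFAT site, in capitals on either strand.
Rcan1 first start, chr16:92466170-92466419: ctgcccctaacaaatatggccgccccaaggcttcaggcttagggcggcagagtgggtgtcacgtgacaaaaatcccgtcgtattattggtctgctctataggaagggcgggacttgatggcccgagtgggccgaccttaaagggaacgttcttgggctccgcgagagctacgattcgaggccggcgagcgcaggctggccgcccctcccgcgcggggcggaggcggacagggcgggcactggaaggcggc
Rcan1 internal start, chr16:92400079-92400328: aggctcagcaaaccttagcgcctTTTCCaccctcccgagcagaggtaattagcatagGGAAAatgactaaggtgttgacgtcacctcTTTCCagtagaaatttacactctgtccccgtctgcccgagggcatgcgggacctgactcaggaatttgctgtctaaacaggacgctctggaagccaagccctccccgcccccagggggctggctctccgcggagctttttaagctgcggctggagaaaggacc
The internal window held 3 matches and the first window held 0. Of 32817 such windows in the RefSeq table, 55.6% held at least 1 match and 6.38% held 3 or more. The internal window also held the cAMP response element TGACGTCA, a motif searched for only after the sequence had been seen, which is present in 1.55% of windows. A match is a run of letters and not a bound site, and gene-level counts do not tell the starts apart. Windows were found for 8 of the 10 genes. Ppp3cb had 3 matches in its window and Rcan2 had 2 in the first of its 3 windows.

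Libraries held between 5985335 and 14365864 counts, the smallest and largest both being B3AR-Tg animals (replicates 4 and 1). The mouse beta-3 adrenergic receptor gene Adrb3 had 0 to 4 counts in every library and checks no label. Counts assigned to Adgrb3 were 0 to 3 in WT and 247 to 723 in B3AR-Tg libraries and so followed the genotype labels. Whether those reads came from that gene or from transgene sequence was not tested. Levels are given as CPM, a gene's share of its library's counts scaled with TMM factors. Myocyte markers summed to 67112 to 90487 CPM in WT, and their sum in B3AR-Tg was 73529 to 108538 CPM. Markers of other cells were far lower, and fibroblast markers also differed between genotypes, from 45.9 to 189.8 CPM (median 103.0) in WT and from 12.01 to 65.1 CPM (median 28.8) in B3AR-Tg, with all 8 markers lower on average. The 8 endothelial markers had a median sum of 140.1 CPM in WT against 86.8 CPM in B3AR-Tg. In the same order, the median sums were 7.14 and 5.06 CPM for the 8 leukocyte markers. They were 94.9 and 102.5 CPM for the 6 mural markers, although 5 of these 6 were lower on average in B3AR-Tg. The exception was Acta2, with a B3AR-Tg mean of 52.3 CPM against a WT mean of 39.1 CPM. No marker was at 0 in all animals. In such bulk samples, fewer cells of a type and less RNA per cell cannot be told apart.

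None of the 10 genes passed the test between genotypes (edgeR quasi-likelihood F test, Benjamini-Hochberg adjusted p over all tested genes, threshold 0.05). Over all tested genes 4.91% passed, a share so low that 0 of 10 does not set the members apart. DESeq2 and limma voom also called 0 of the 10. Without adjustment, 2 of the 10 (20%) had an edgeR p under 0.05, against 19.3% of all tested genes, and DESeq2 gave 2 and voom 3. The fitted log2 fold change was above 0 for 6 of the 10, against 51.1% of all tested genes. The median log2 fold change (B3AR-Tg over WT) was 0.05 over the 10 genes and 0.01 over all tested genes. Groups overlapped for every member, while 0.201% of tested genes lay wholly higher and 0.247% wholly lower in B3AR-Tg. The load markers of the same libraries were all lower in B3AR-Tg: 6 of 6 passed, with a median log2 fold change of −1.45. That list, like the others, was chosen with earlier results of these data known and is given as a reference only.

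**Figure D1:**
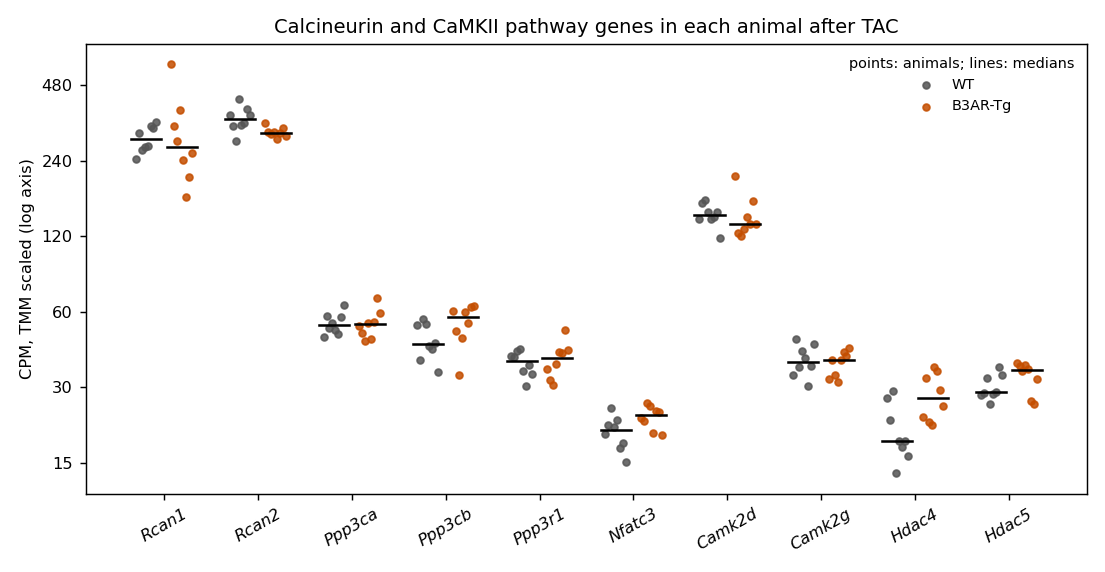
Level of each of the 10 genes in each animal, in CPM on a log axis, with WT in grey, B3AR-Tg in orange and black lines at the medians of 8 animals. Groups overlap for every gene, Rcan1 spreads widest in B3AR-Tg, and all B3AR-Tg points of Hdac4 lie above the WT median.

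The members differed in level by far more than any of them differed between genotypes. Per kilobase of annotated exon (GENCODE M21 exons merged per gene), WT levels were 95.9 ± 11.5 CPM per kilobase for Rcan1 and 81.0 ± 9.25 for Rcan2 (SD, n = 8, as for all following). The regulatory subunit Ppp3r1 was next at 11.6 ± 1.31 CPM per kilobase. Camk2d (6.52 ± 0.678), Camk2g (6.04 ± 0.869), Ppp3ca (5.41 ± 0.539) and Ppp3cb (5.23 ± 0.870) followed, and each differed from its neighbour in that order by less than the larger of their SDs. Hdac5 was at 3.45 ± 0.399, Nfatc3 at 1.70 ± 0.262 and Hdac4 lowest at 1.28 ± 0.344 CPM per kilobase. Merged exons count every annotated end of a gene, so the levels of genes with long alternative ends, such as Camk2d, are understated.

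Among the calcineurin regulators, Rcan1 (ENSMUSG00000022951) did not differ in mean but varied widely in B3AR-Tg. WT animals ran from 244 to 342 CPM with a median of 293 CPM. B3AR-Tg animals ran from 172 to 582 CPM with a median of 273 CPM. The B3AR-Tg group thus reached past WT at both ends, with 2 animals above the highest WT animal and 3 below the lowest. Its log2 fold change was 0.06, standard error 0.18 (edgeR adjusted p = 0.904), and the 95% interval ran from 0.802-fold to 1.35-fold. The SD was 35.4 CPM around a mean of 296 CPM in WT, against 129 CPM around 308 CPM in B3AR-Tg. The difference in spread was not tested. B3AR-Tg replicate 1, the deepest library, was highest at 582 CPM, and the next B3AR-Tg animal was at 382 CPM. Without replicate 1 the B3AR-Tg level was 268 ± 71.9 CPM (SD, n = 7) and the log2 fold change was −0.14 (edgeR adjusted p = 0.638). The sign of the Rcan1 difference thus depended on that animal, and also on the method. With every animal kept, it was −0.087 with limma voom and −0.036 with replicate number as a block in edgeR.

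Rcan2 (ENSMUSG00000039601), the paralog of Rcan1, showed the reverse spread. Its level was 289 to 423 CPM in WT (median 352) and 293 to 341 CPM in B3AR-Tg (median 310). All 8 B3AR-Tg animals lay under the WT median and inside the WT range, since WT replicate 3 was the lowest animal of all. The log2 fold change was −0.18 and a standard error of 0.07, and it did not pass (edgeR unadjusted p = 0.0251, adjusted p = 0.182). Its 95% interval ran from 0.793-fold to 0.983-fold before any correction for the number of genes. The coefficient of variation, the SD over the mean, was 11.4% for WT animals against 4.58% for B3AR-Tg animals.

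Of the calcineurin subunits among the members, Ppp3ca and Ppp3r1 had close medians in the 2 genotypes. Ppp3ca (ENSMUSG00000028161), the alpha catalytic subunit, was at 47.5 to 63.7 CPM in WT (median 53.1) and 45.8 to 68.2 CPM in B3AR-Tg (median 53.5). Its fitted fold change was 0.998, with a 95% interval from 0.880-fold to 1.13-fold (edgeR adjusted p = 0.995). Ppp3r1 (ENSMUSG00000033953), the regulatory subunit shared by the catalytic forms, was at 30.4 to 42.6 CPM in WT (median 38.4) and 30.8 to 50.8 CPM in B3AR-Tg (median 39.2). The 95% interval of Ppp3r1 was 0.895-fold to 1.20-fold (edgeR adjusted p = 0.835).

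Ppp3cb (ENSMUSG00000021816), the beta catalytic subunit, was at 34.7 to 56.2 CPM in WT (median 44.6) and 33.6 to 63.1 CPM in B3AR-Tg (median 57.2). In B3AR-Tg, 7 of 8 animals lay above the WT median and 4 above the highest WT animal, while replicate 3 was the lowest of all 16. The log2 fold change was 0.23 and a standard error of 0.12 and did not pass (edgeR unadjusted p = 0.0711, adjusted p = 0.311). Nfatc3 (ENSMUSG00000031902), the NFAT factor among the members, was at 15.1 to 24.8 CPM in WT (median 20.2) and 19.3 to 25.99 CPM in B3AR-Tg (median 23.3). Here 6 of 8 B3AR-Tg animals were above the WT median, and the log2 fold change of 0.20 (standard error 0.10) did not pass either (edgeR adjusted p = 0.284).

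On the CaMKII arm, neither cardiac isoform differed detectably. Camk2d (ENSMUSG00000053819) was at 118 to 167 CPM in WT (median 146) and 121 to 208 CPM in B3AR-Tg (median 134). Only 2 of 8 B3AR-Tg animals exceeded the WT median, and 1 of them, replicate 1 at 208 CPM, exceeded every WT animal. The fitted fold change was 0.989, with a 95% interval from 0.850-fold to 1.15-fold (edgeR adjusted p = 0.959). Camk2g (ENSMUSG00000021820) was at 30.3 to 46.7 CPM in WT (median 38.0) and 31.7 to 43.0 CPM in B3AR-Tg (median 38.6), entirely inside the WT range. Its 95% interval was 0.843-fold to 1.11-fold (edgeR adjusted p = 0.828).

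The class IIa deacetylases, which repress MEF2, gave the member nearest to the threshold. Hdac4 (ENSMUSG00000026313) was at 13.7 to 28.9 CPM in WT (median 18.3) and 21.3 to 36.1 CPM in B3AR-Tg (median 27.3). All 8 B3AR-Tg animals were above the WT median and 4 were above the highest WT animal. The WT animals themselves were uneven, with replicates 1, 2 and 3 at 27.3, 22.3 and 28.9 CPM and the other 5 at 13.7 to 18.3 CPM. Its log2 fold change was 0.47 and a standard error of 0.15, a 1.39-fold higher level with a 95% interval from 1.11-fold to 1.73-fold. That difference did not pass over all genes (edgeR unadjusted p = 0.00611, adjusted p = 0.0826), nor with DESeq2 (adjusted p = 0.0503) or limma voom (adjusted p = 0.0529). Of 16 fits that each left out 1 animal, only that without WT replicate 3 passed (log2 fold change 0.56, edgeR adjusted p = 0.0310). That animal was the highest in WT. Log2 fold changes in those fits ran from 0.40 to 0.56, and without B3AR-Tg replicate 5 the edgeR adjusted p was 0.180. With the summed level of fibroblast, endothelial, mural and leukocyte markers as a covariate the log2 fold change was 0.24 (edgeR adjusted p = 0.630). Because that covariate differed between genotypes, the part of other cells in the value cannot be told apart from genotype.

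Hdac5 (ENSMUSG00000008855) was at 25.9 to 36.2 CPM in WT (median 28.6) and 25.7 to 37.6 CPM in B3AR-Tg (median 35.2). In B3AR-Tg, 6 of 8 animals lay above the WT median and replicates 6 and 7 were low, at 26.6 and 25.7 CPM. The log2 fold change was 0.14 (standard error 0.10, edgeR adjusted p = 0.463).

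**Figure D2:**
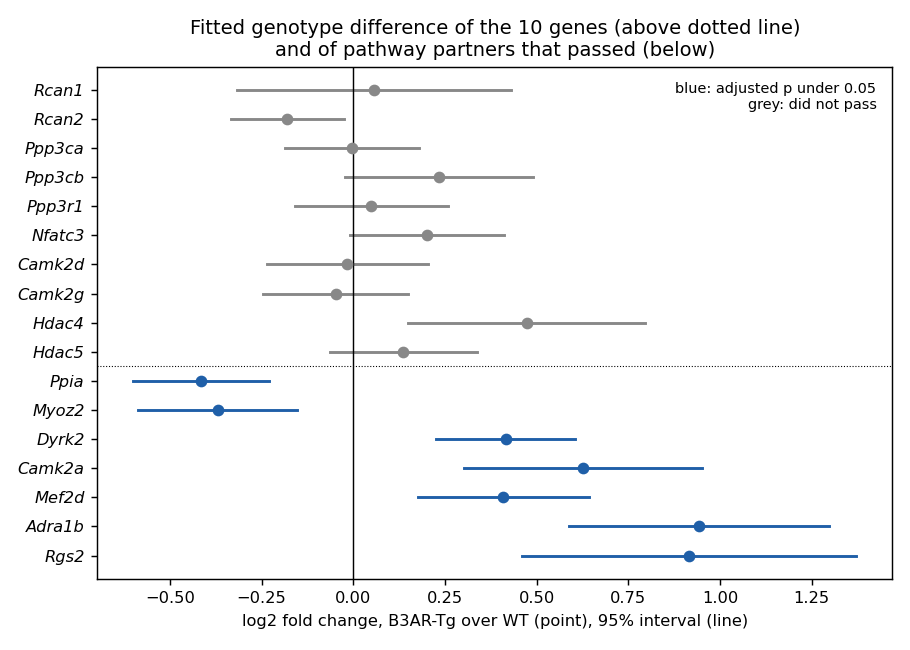
Fitted log2 fold change, B3AR-Tg over WT, with its 95% interval from the edgeR fit, for the 10 genes above the dotted line and for the 7 pathway partners that passed below it. Intervals of Rcan2 and Hdac4 leave out 0 but neither passed after adjustment, and the partners shown in blue range from −0.42 (Ppia) to 0.94 (Adra1b).

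Ratios of members within a library were compared because they do not depend on how libraries are scaled. None of the 6 ratios differed between genotypes (exact two-sided permutation over splits of the animals, adjusted over the 6 ratios), and 0 had an unadjusted p under 0.05. The Camk2d to Camk2g ratio of counts was 3.86 ± 0.674 for WT against 3.94 ± 1.08 for B3AR-Tg (exact permutation p = 0.963). The Hdac4 to Hdac5 ratio was 0.676 ± 0.186 in WT and 0.871 ± 0.271 in B3AR-Tg, a log2 difference of 0.35 and a standard error of 0.21 (exact permutation p = 0.114, adjusted p = 0.463). In 6 of 8 B3AR-Tg animals that ratio was above the WT median. The catalytic ratio Ppp3ca to Ppp3cb was 1.21 ± 0.317 for WT against 1.02 ± 0.180 for B3AR-Tg (log2 difference −0.23, standard error 0.15, exact permutation p = 0.154, adjusted p = 0.463).

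The ratio of Ppp3r1 to the sum of the catalytic members Ppp3ca and Ppp3cb had the smallest spread of the 6 relative to its mean. That sum leaves out the third catalytic gene Ppp3cc, at a WT mean of 38.5 CPM against 54.0 for Ppp3ca and 46.1 for Ppp3cb. The ratio ran from 0.332 to 0.412 for WT animals, and for B3AR-Tg animals from 0.314 to 0.388 (exact permutation p = 0.332). By contrast, Rcan1 over the same sum spanned 2.43 to 3.60 for WT animals and 1.58 to 5.13 for B3AR-Tg animals (exact permutation p = 0.594). The Rcan1 to Rcan2 ratio spanned 0.647 to 0.971 for WT animals and 0.556 to 1.71 for B3AR-Tg animals (exact permutation p = 0.503). Both Rcan1 ratios therefore carried the wide B3AR-Tg spread of Rcan1 itself.

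**Figure D3:**
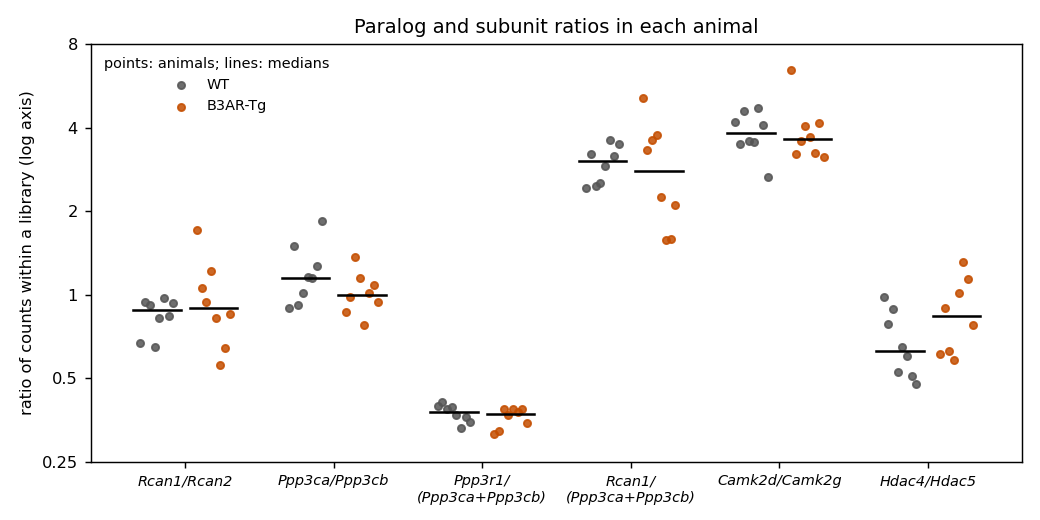
Ratio of counts of members within each library, on a log axis, with WT in grey, B3AR-Tg in orange and black lines at the medians of 8 animals. Both ratios with Rcan1 on top spread more widely in B3AR-Tg, and 1 B3AR-Tg animal stands at 6.43 for Camk2d to Camk2g.

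Load itself was not measured here, but the levels of load-marker transcripts varied among animals of a genotype. Each member was therefore set against the mean log2 CPM of Nppa, Nppb, Myh7, Acta1, Ankrd1 and Xirp2 within WT and within B3AR-Tg. That mean ran from 9.74 to 11.6 in WT and from 8.05 to 9.99 in B3AR-Tg. None of the 20 relations passed (exact permutation over pairings, adjusted over the 20), and 1 had an unadjusted p under 0.05. That relation was Camk2g in WT, which was higher in WT animals with higher load markers (Pearson r = 0.79, exact permutation p = 0.0253, Spearman rho = 0.76, exact permutation p = 0.0368, adjusted p = 0.505 and 0.735, n = 8). Without the 2 WT animals farthest from the median load-marker level, r was 0.64. In B3AR-Tg the Camk2g relation was r = −0.03 (exact permutation p = 0.948, rho = −0.12, exact permutation p = 0.793), and the difference between genotypes was not tested. Among the 10939 genes outside the load markers, an unadjusted p under 0.05 came with a positive r for 8.38% of genes in WT, where 6.2% had a negative one. Within B3AR-Tg these shares were 2.33% and 2.39%.

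Rcan1 did not follow the load markers detectably in either genotype, with r = 0.18 in WT (exact permutation p = 0.665, rho = 0.10, exact permutation p = 0.840) and r = −0.19 in B3AR-Tg (exact permutation p = 0.647, rho = −0.17, exact permutation p = 0.703). Rcan2 gave r = 0.55 in WT (exact permutation p = 0.162, rho = 0.40, exact permutation p = 0.327) and r = 0.49 in B3AR-Tg (exact permutation p = 0.209, rho = 0.48, exact permutation p = 0.243). After adjustment, the p-values of r over these Rcan1 and Rcan2 relations were 0.831 and 0.696. Hdac4 gave r = −0.41 in WT (exact permutation p = 0.310, rho = −0.36, exact permutation p = 0.389) and r = 0.04 in B3AR-Tg (exact permutation p = 0.928, rho = −0.02, exact permutation p = 0.977). With 8 animals per genotype such relations are measured loosely, and missing the threshold does not show that a member is unrelated to load.

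**Figure D4:**
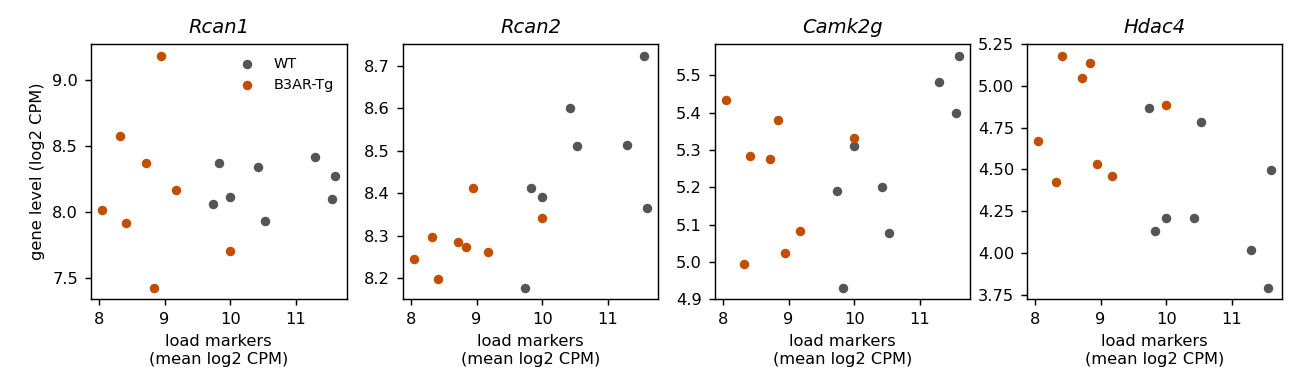
Level of Rcan1, Rcan2, Camk2g and Hdac4 in log2 CPM against the mean log2 CPM of the 6 load markers, 1 point per animal, WT in grey and B3AR-Tg in orange. WT animals lie mostly to the right, though B3AR-Tg replicate 7 (9.99) lies right of the lowest WT animal (9.74). Within a genotype only Camk2g in WT had an unadjusted p under 0.05.

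Other genes of the route were taken from 5 lists holding 65 genes, of which 54 could be tested. Of these, 5 were higher and 2 lower in B3AR-Tg, against 2.03% higher and 2.88% lower among all tested genes. The lists were chosen with earlier results of these data known, so these counts describe the listed genes and do not test the route for enrichment. The median log2 fold change of the 54 was 0.02. With the other-cell marker level as a covariate 0 of the 54 passed, while 22 of all genes did. The log2 of that summed marker level ran from 8.05 to 9.01 in WT and from 6.78 to 8.49 in B3AR-Tg. Of the 7 genes, 6 had log2 fold changes about as large or larger under that covariate: 0.57 for Mef2d, 0.69 for Camk2a, 0.50 for Dyrk2, 0.99 for Adra1b, −0.50 for Myoz2 and −0.40 for Ppia. Rgs2 was smaller, at 0.65 against 0.92. Adjusted p-values of the 7 ran from 0.0614 to 0.330 (edgeR) in that fit.

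Among calcineurin partners, 2 of 9 tested genes were lower and 0 higher. Ppia, which encodes cyclophilin A, the partner through which cyclosporin inhibits calcineurin, fell from a median of 108 CPM (87.4 to 125) in WT to 82.1 CPM (68.1 to 87.5) in B3AR-Tg. Its log2 fold change was −0.42 (standard error 0.09, edgeR adjusted p = 0.0117). Ppia has many pseudogene copies, so its count is uncertain to the extent that reads were shared with them. Myoz2, the cardiac calsarcin that tethers calcineurin at the Z-disc and restrains it, fell from a median of 1378 CPM (1096 to 1645) to 1007 CPM (843 to 1324).

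The Myoz2 difference, −0.37 on the log2 scale and a standard error of 0.10, was close to the threshold (edgeR adjusted p = 0.0436), with 0 of 8 B3AR-Tg animals over the median of WT. It kept the threshold in 5 of the 16 fits that each left out 1 animal, with log2 fold changes from −0.42 to −0.32. The third catalytic gene Ppp3cc had a log2 fold change of −0.22 (edgeR adjusted p = 0.199). Per kilobase of exon its WT level was 12.9 ± 1.43 CPM, above those of Ppp3ca (5.41) and Ppp3cb (5.23). Before division by length, its WT mean was 38.5 CPM, below theirs at 54.0 and 46.1 CPM. The third RCAN gene, Rcan3, had a log2 fold change of 0.02 (edgeR adjusted p = 0.980). Akap6, an anchor of calcineurin at the nuclear envelope, had a log2 fold change of −0.01 (edgeR adjusted p = 0.968).

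Of 8 tested NFAT factors and NFAT kinases, 1 was higher and 0 lower. Dyrk2, a kinase that phosphorylates NFAT, rose from a median of 24.2 CPM (20.4 to 28.0) in WT to 32.3 CPM (25.7 to 39.0) in B3AR-Tg, and all 8 animals were above the WT median. The log2 fold change was 0.42 (standard error 0.09, edgeR adjusted p = 0.0132). Its relative Dyrk1a had a log2 fold change of 0.13 (edgeR adjusted p = 0.447) and Gsk3b, another NFAT kinase, 0.24 (edgeR adjusted p = 0.439). The factors Nfatc1 (0.22) and Nfatc2 (−0.52) did not pass (edgeR adjusted p = 0.478 and 0.363), and Nfatc4 was too low to test.

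Of 10 tested genes for calmodulin, CaM kinases and CaMKII inhibitors, 1 was higher and 0 lower. Camk2a, the CaMKII isoform best known from neurons, rose from a median of 11.1 CPM (8.68 to 17.6) in WT to 18.4 CPM (11.5 to 23.5) in B3AR-Tg. All 8 B3AR-Tg animals were above the WT median, although the groups overlapped. Its log2 fold change was 0.63 (standard error 0.16, edgeR adjusted p = 0.0241). Per kilobase of exon, Camk2a was at 2.39 ± 0.521 CPM in B3AR-Tg, against 6.45 ± 1.30 for Camk2d in the same animals. That scale understates Camk2d, whose merged exons span 22493 bases against 7465 for Camk2a. Before division by length, the B3AR-Tg means were 17.9 CPM for Camk2a and 145 CPM for Camk2d. The call was lost without WT replicate 4 (edgeR adjusted p = 0.0508) and without B3AR-Tg replicate 5 (edgeR adjusted p = 0.0544).

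Of 13 tested genes for class IIa deacetylases, their kinases, MEF2 factors and partners, 1 was higher and 0 lower. Mef2d, a MEF2 factor held in check by class IIa deacetylases, rose from a median of 36.1 CPM (29.3 to 48.2) in WT to 51.9 CPM (39.8 to 59.8) in B3AR-Tg. Its log2 fold change was 0.41 (standard error 0.11, edgeR adjusted p = 0.0378), and it kept the threshold in 5 of the 16 fits that each left out 1 animal. Mef2a stood at a log2 fold change of 0.28 without passing (edgeR unadjusted p = 0.0163, adjusted p = 0.144), and Mef2c had −0.06 (edgeR adjusted p = 0.803). Hdac9, a further class IIa deacetylase, had 0.18 (edgeR adjusted p = 0.487). Prkd1, a kinase of these deacetylases, had 0.33 (edgeR adjusted p = 0.366).

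Of 14 tested genes upstream of the calcium signal, 2 were higher and 0 lower. These were Adra1b, an alpha-1 adrenergic receptor that couples to Gq (log2 fold change 0.94), and Rgs2, which limits Gq signalling (0.92), with edgeR adjusted p = 0.00485 and 0.0211. Both genes were above the WT median in all 8 B3AR-Tg animals. Adra1b, at a low level, had a median of 5.32 CPM (3.66 to 7.32) in WT and 9.38 CPM (7.86 to 17.1) in B3AR-Tg. Its B3AR-Tg animals lay wholly higher, as did those of 0.201% of all tested genes. Rgs2 had a median of 12.3 CPM (7.22 to 18.1) in WT and 19.9 CPM (16.4 to 44.2) in B3AR-Tg, and its groups overlapped. Gnaq itself, the Gq alpha subunit, had a log2 fold change of −0.00 (edgeR adjusted p = 0.9995), and the angiotensin receptor gene Agtr1a had 0.10 (edgeR adjusted p = 0.760). The phospholipase gene Plcb1 (−0.55) and the IP3 receptor gene Itpr2 (0.45) did not pass (edgeR adjusted p = 0.153 and 0.176).

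**Figure D5:**
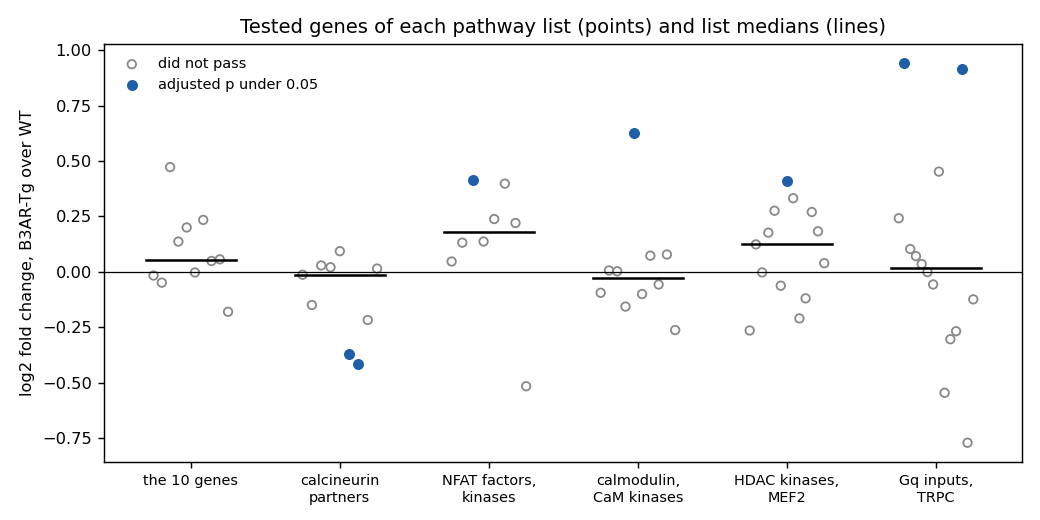
Log2 fold change, B3AR-Tg over WT, of every tested gene in the set of 10 and in the 5 pathway lists, filled where the edgeR adjusted p was under 0.05, with black lines at the list medians. Filled points number 0 among the 10 genes and 7 among the lists, 5 of them above 0.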

How the data were processed

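RNA from plated ventricular myocytes of 16 mice, 8 per genotype, was ribodepleted and sequenced from both ends, per the labels' protocols. The authors deposited whole-number counts per gene, not normalized, with 1 column per animal, matched by the name in each title. The submitters' processing notes name Salmon and GRCm39, and versions, rounding, strand setting and annotation are not given in the sources used here. Genotype came from the titles.

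All genes were fitted together with edgeR 4.0.16 in R 4.3.3 (filterByExpr minimum count 10, minimum total 15, TMM scaling, quasi-likelihood F test on genotype, Benjamini-Hochberg over 10945 genes). Standard errors are the log2 fold change over the root of F, and 95% intervals use the test's degrees of freedom, unadjusted. CPM are TMM scaled. Log2 CPM has a prior count of 2, and ratios a pseudocount of 0.5 counts. Ratios and load relations used exact permutation (Python 3.11.15, numpy 2.4.6). DESeq2 1.42.0 and limma 3.58.1 (voom with sample weights) were alternatives, with other scalings, filters, covariates, a replicate block and each animal left out. Scripts were tested on simulated data. Library totals of 5985335 to 14365864 counts limit precision for low genes. Of 56 library pairs within a genotype, none agreed within sampling noise (chi-square per gene 5.82 to 52.8).

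Members and lists were chosen with earlier results of these data known. Named were the members, Nppa, and up to 4 genes per list past the threshold. Genes most like a member in pattern were to be named only for members that passed, so none are. List genes named without passing were picked for their role after values were seen. Gene lengths came from GENCODE M21 by gene ID and promoters from RefSeq, both on GRCm38. The values of 1 withheld gene among the lists are not reported here.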

Additional observations from a re-analysis of the deposited data

Results flagged for a closer look

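In each group of 8 animals, a highest or lowest animal was sought whose gap to its nearest neighbour took more of the group's range than Dixon's 95% critical value of 0.526. Of 48 groups searched (members, ratios, named partners and Nppa, on the log2 scale) 2 had such an animal, and chance flags about 1 in 20, here 2.4.

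Ppp3cb, the beta catalytic subunit of calcineurin, was low in B3AR-Tg replicate 3, with a gap of 0.546 of the range. This animal was at 33.6 CPM, and the other 7 ranged from 47.4 to 63.1 CPM. The Camk2d to Camk2g ratio was high in B3AR-Tg replicate 1, with a gap of 0.610 of the range, at 6.43 against 3.13 to 4.15 in the other 7. That library was the deepest, at 14365864 counts. The part of depth in the value was not tested.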

How the results depend on the processing

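The count of 0 members called held under all alternatives except library size as the only scaling, the animal tag number as a covariate, a threshold of 0.1, and removal of WT replicate 3, each of which called 1 member, Hdac4, as higher (leaving out animals gave 0 to 1). No alternative called a member lower. Over all genes, 537 passed. The other-cell covariate left 22, the replicate block 230, a threshold of 0.1 gave 908, and leaving out each animal gave 272 (WT replicate 4) to 675, with 277 without B3AR-Tg replicate 5 and 345 without replicate 8. Of the 54 pathway genes 7 passed, 0 with the other-cell covariate (6 of the 7 fold changes about as large or larger), 3 with the replicate block, and 4 to 8 when each animal was left out. DESeq2 called 318 genes higher and 486 lower. Calls were 41.3% higher with TMM scaling and 67.7% higher with library size alone, which moved the median of all genes to 0.08 on the log2 scale.

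Of the members, Rcan2, Ppp3cb, Nfatc3, Hdac4 and Hdac5 kept their sign in all 27 alternatives. Ppp3ca changed sign with library size alone (0.070), no low-count filter (0.015), voom (0.038), the other-cell covariate (0.16) and without mitochondrial genes and Gm20594 (0.0012), an alternative chosen after seeing the data. Camk2d did so with library size alone (0.067), no filter (0.0032), the other-cell covariate (0.086) and the tag covariate (0.0087), and Camk2g with library size alone (0.020), voom (0.027) and the other-cell covariate (0.0039). Rcan1 was −0.087 with voom and −0.036 with the replicate block. When each animal was left out, log2 fold changes ran from −0.058 to 0.035 for Ppp3ca, −0.11 to 0.019 for Camk2d, −0.14 to 0.15 for Rcan1 and −0.015 to 0.092 for Ppp3r1, and the Camk2d to Camk2g difference from −0.096 to 0.054. None of these values passed the threshold, and the cause was not tested.

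Ratios called stayed at 0 in 18 alternatives and load relations at 0 in 17. With Nppa alone as load measure, r in B3AR-Tg changed sign for Rcan2 (−0.20), Camk2d (−0.34) and Camk2g (0.22). With each animal left out, r ran across 0 in WT for Nfatc3 (−0.44 to 0.056), Camk2d (−0.47 to 0.24) and Hdac5 (−0.46 to 0.021), and in B3AR-Tg for Camk2g (−0.40 to 0.30), Ppp3cb (−0.58 to 0.29), Hdac4 (−0.14 to 0.21), Rcan1 (−0.39 to 0.15), Ppp3ca (−0.58 to 0.65) and Ppp3r1 (−0.69 to 0.47).

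Same-numbered animals did not deviate together over all genes (r −0.219 to 0.0935 in 8 pairs, none over 0.1). No WT animal correlated best with the B3AR-Tg animal of its own number. A shared day or batch acting on part of the genes was not tested. The replicate block is therefore given only as an alternative. Among the 7 pathway genes it ended the calls of Mef2d, Camk2a, Myoz2 and Dyrk2 (edgeR adjusted p from 0.0502 to 0.153) at log2 fold changes of 0.42, 0.63, −0.37 and 0.42, close to those without it, and kept the calls of Ppia, Adra1b and Rgs2.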

Other observations

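B3AR-Tg replicate 1 was the highest of its group for 4 of the 10 members (Rcan1, Rcan2, Camk2d and Hdac5) and the lowest for 0. B3AR-Tg replicate 3 was the lowest of its group for 4 members (Ppp3ca, Ppp3cb, Ppp3r1 and Camk2d) and the highest for 1, Nfatc3. In WT, replicate 3 was the highest for 4 members (Ppp3cb, Nfatc3, Camk2d and Hdac4) and the lowest for 1, Rcan2. These animals were picked out after their values were seen, and their standing is given as a description.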
